A study of Homo sapiens with 3 samples.

Results

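The 8 genes described here encode ubiquitin ligases of the HECT family: HUWE1, HERC1, HERC2, NEDD4, NEDD4L, ITCH, TRIP12 and SMURF1. They were taken by name from tables of read clusters bound by MATR3 (matrin 3, a nuclear RNA-binding protein of the nuclear matrix), and the set was chosen by reads, since HUWE1 ranked among the genes with the most reads in these libraries. They held 955 of the 388807 clusters in the tables, and they are 8 of the 13557 gene names there. The clusters come from PAR-CLIP, in which cells incorporate a photoreactive uridine, RNA is crosslinked to the protein by UV light, and crosslinked uridines are read as T-to-C changes. The single group consisted of wild-type HEK293 cells, an established line from human embryonic kidney, with no treatment named, in 3 biological replicates immunoprecipitated with an antibody against MATR3. There was no control library and no other genotype, and RNA-seq of these cells is not analysed here, so how much of a gene's RNA was present and how often it was bound cannot be told apart. Because reads in these same libraries chose HUWE1, the levels of the members are given as a description with no test.

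A HECT ligase takes ubiquitin from an E2 enzyme onto a cysteine of its own HECT domain and then passes it to a substrate, unlike RING ligases, which bring the E2 and the substrate together. The family falls into NEDD4-type ligases, which carry a lipid-binding C2 domain and WW domains that bind proline-rich motifs (NEDD4, NEDD4L, ITCH and SMURF1 here), HERC proteins with RCC1-like domains (HERC1 and HERC2 are the giant ones), and a mixed remainder to which HUWE1 and TRIP12 belong. Their genes are long and rich in introns, and MATR3 is known mainly as a binder of pyrimidine-rich sequence in introns, with the motif AUCUU.

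The 3 replicates held 133088, 131679 and 124040 clusters. Of these, 114952, 114691 and 108476 carried a gene name, with 1448303, 1328093 and 1358924 reads. Every deposited cluster had at least 4 reads, 2 conversion locations and 20 nt, so weaker sites were not seen. Of the 4 kidney-line markers looked at, the cadherin gene CDH2 had a cluster in 3 replicates, PAX2 and PAX8 in 2 and LHX1 in 1, and clusters mark binding, not expression. The members held 325, 290 and 340 clusters with 4410, 3300 and 4662 reads in replicates 1, 2 and 3.

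HUWE1 (ENSG00000086758), the ligase of MCL1, p53 and MYC among other substrates, lies on the minus strand at chrX:53532096-53686752 of hg38, a span of 154.7 kb. Its clusters held 1911, 1379 and 2276 reads, or 1319, 1038 and 1675 normalised reads, that is reads per 1000000 reads in gene-named clusters of the replicate (1344 ± 319, SD, n = 3). Replicate 3 was highest and replicate 2 lowest, and HUWE1 lay above every other member in each replicate. It held 43.3%, 41.8% and 48.8% of all reads of the 8 genes. It had 108, 100 and 122 clusters, which is 0.711 ± 0.072 clusters per kb of gene (SD, n = 3). By mean normalised reads HUWE1 ranked 10 among 20018 protein-coding genes, and by clusters per kb it ranked 743. The first rank counts reads over the whole gene and the second divides clusters by gene length, so the ranks measure different things. What sets them apart was not tested.

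HERC1 (ENSG00000103657, chr15:63608618-63833948, minus strand, 225.3 kb), a giant ligase with RCC1-like domains, followed with 725, 492 and 637 normalised reads (618 ± 117). TRIP12 (ENSG00000153827, chr2:229763837-229923239, minus strand, 159.4 kb), a nuclear ligase of the ubiquitin fusion degradation pathway, had 336, 242 and 279 (286 ± 46.9). SMURF1 (ENSG00000198742, chr7:99027440-99144108, minus strand, 116.7 kb), which targets SMAD proteins of BMP signalling and RHOA, had 233, 257 and 273 (254 ± 20.3). These 3 genes came next after HUWE1, and TRIP12 and SMURF1 could not be separated, since their replicates overlapped and their order turned without replicate 1. ITCH (ENSG00000078747, chr20:34363235-34511773, plus strand, 148.5 kb), a regulator of T-cell activation, had 202, 192 and 282 normalised reads (225 ± 49.3), overlapping both of that pair. HERC2 (ENSG00000128731, chr15:28111040-28322179, minus strand, 211.1 kb), which acts in the response to DNA breaks, had 123, 169 and 144 (146 ± 23.3), all below ITCH. NEDD4L (ENSG00000049759, chr18:58044226-58401540, plus strand, 357.3 kb), which removes the epithelial sodium channel from the cell surface, had 76.0, 76.8 and 92.7 (81.8 ± 9.45). NEDD4 (ENSG00000069869, chr15:55826922-55993660, minus strand, 166.7 kb), the founding member of its branch, had 31.8, 16.6 and 48.6 (32.3 ± 16.0). NEDD4 lay below every other member in all 3 replicates, and replicate 2 held only 2 of its clusters.

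**Figure D1:**
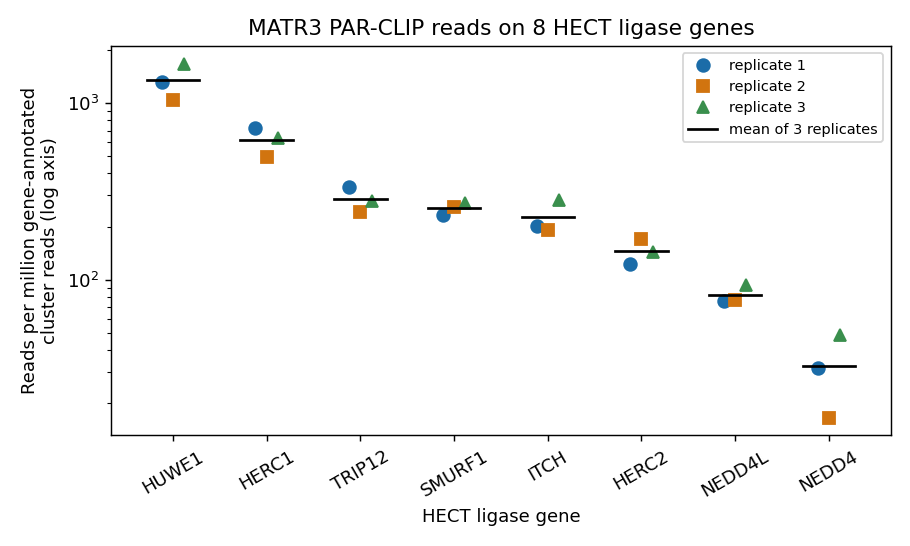
Reads in clusters of each of the 8 HECT ligase genes, in normalised reads on a log axis. Points are the 3 replicates and the line is their mean. HUWE1 (1038 to 1675) sits above HERC1 (492 to 725) in every replicate, TRIP12, SMURF1 and ITCH overlap, and NEDD4 (16.6 to 48.6) is lowest.

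Per kb of gene, which allows the genes to be compared, the order was much the same. HUWE1 had 8.69 ± 2.06 normalised reads per kb, HERC1 2.74 ± 0.52, SMURF1 2.18 ± 0.17, TRIP12 1.79 ± 0.29 and ITCH 1.52 ± 0.33 (SD, n = 3 each). HERC2 had 0.689 ± 0.11, NEDD4L 0.229 ± 0.026 and NEDD4 0.194 ± 0.096. In clusters per kb HERC1 had 0.296 ± 0.046, SMURF1 0.274 ± 0.031, TRIP12 0.234 ± 0.019 and ITCH 0.200 ± 0.037, and each of these overlapped the next over the replicates. Below them came HERC2 with 0.106 ± 0.011, NEDD4L with 0.042 ± 0.003 and NEDD4 with 0.032 ± 0.017, of which the last pair overlapped. HUWE1 and HERC2 stood clear of their neighbours in this order in every replicate. The order of HERC1 and SMURF1 turned without replicate 1, and NEDD4 passed NEDD4L in the stricter sets of clusters. NEDD4L, the longest of the 8 genes at 357.3 kb, had 15, 14 and 16 clusters, whereas SMURF1, the shortest at 116.7 kb, had 29, 31 and 36.

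The 8 members all had a cluster in all 3 replicates, where 38.9% of 20018 protein-coding genes did and 54.5% of the 3665 protein-coding genes of at least 100 kb. The members were named with reads in view, so nothing is read from that count. Of the 28 HECT genes of the family list, 21 had a cluster in all 3 replicates, 3 in some (HECTD2, HERC3 and HERC6) and 4 in none (HECTD3, HECW1, HECW2 and HERC5). Among the 20 HECT genes outside the 8, UBE3A, the ligase lost in Angelman syndrome, had 624 ± 115 normalised reads and 0.614 clusters per kb. UBE3C had 482 ± 46.7 and G2E3 249 ± 7.97 normalised reads. The median over the 8 members was 239.7 normalised reads. It was 69.7 over the other 20 HECT genes and 64.2 over the 7794 protein-coding genes with a cluster in all 3 replicates. Of the other 20, only 13 had a cluster in all 3 replicates, so these sets are not alike. Reads over whole genes also depend on gene length. Median clusters per kb were 0.217 in the members, 0.097 in the other 20 and 0.201 in the 7794 genes.

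Genes that work with HECT ligases were looked at next. All 8 of the list of E1 enzymes, E2 enzymes and NDFIP adaptors had a cluster in all 3 replicates, where 38.9% of protein-coding genes did; the list was drawn up with results of these data known, and nothing is read from the count. They had a median of 182.0 normalised reads. UBE2L3, the E2 that serves HECT and RBR ligases, had 575 ± 122, and NDFIP2, a membrane adaptor that activates NEDD4-type ligases, had 16.2 ± 17.3. Genes outside the family with levels most like HUWE1, by Euclidean distance of log2 normalised reads over the 3 replicates among 8906 genes, included PRRC2B (distance 0.304, 1424 ± 175 normalised reads) and SLC7A1 (0.458, 1464 ± 173).

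Gene length gave little order within the family. Across the 28 HECT genes Spearman's rho between gene length and mean clusters was 0.139, and between length and reads it was 0.107. Across all 20018 protein-coding genes the same values were 0.380 and 0.355. These are descriptions over genes that share the same 3 libraries. Genes without a cluster enter as 0, and whether they were expressed is not known here.

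**Figure D2:**
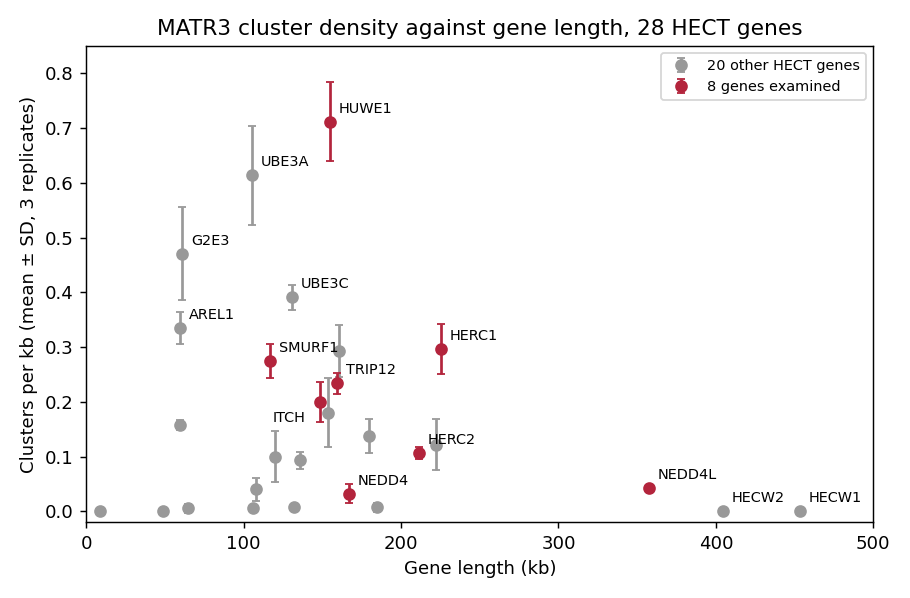
Mean clusters per kb over the 3 replicates against gene length in kb for the 28 HECT genes, with the 8 members in red and error bars of 1 SD. HUWE1 is highest of the members at 0.711 clusters per kb and 154.7 kb, and NEDD4 (166.7 kb, 0.032) and NEDD4L (357.3 kb, 0.042) are lowest.

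The sites found in all 3 replicates were intronic stretches of 63 to 216 nt after merging, where single member clusters had a median of 39 nt (mean over replicates). When overlapping clusters of the replicates were merged, the members held 812 regions, of which 98 had clusters of 2 replicates and 15 of all 3. All 15 lay in introns, where 921 of the 955 member clusters were of class intron. Intron 1 of HERC1, TRIP12 or SMURF1 held 7 of them. In these genes intron 1 held 73 of 200, 41 of 112 and 77 of 96 clusters. None belonged to NEDD4, NEDD4L or ITCH, which had 16, 45 and 89 of the 955 clusters. Nothing is read from these counts. In 6 of the 15, the clusters of the 3 replicates shared at least 20 nt. These 6 are printed because they are the only places in the 8 genes where all 3 libraries covered a common stretch of that length. They are hg38 sequences of the minus strand, 5′ to 3′, and capitals mark the bases covered by a cluster of all 3 replicates.
HUWE1 intron 23, chrX:53611438-53611576: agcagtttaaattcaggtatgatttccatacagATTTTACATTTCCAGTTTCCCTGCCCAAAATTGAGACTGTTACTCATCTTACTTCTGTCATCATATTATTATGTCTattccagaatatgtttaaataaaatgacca
HERC1 intron 24, chr15:63712268-63712442: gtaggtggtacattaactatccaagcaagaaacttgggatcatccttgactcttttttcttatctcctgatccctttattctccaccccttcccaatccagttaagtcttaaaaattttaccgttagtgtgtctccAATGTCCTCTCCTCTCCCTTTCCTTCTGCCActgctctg
TRIP12 intron 4, chr2:229848642-229848857: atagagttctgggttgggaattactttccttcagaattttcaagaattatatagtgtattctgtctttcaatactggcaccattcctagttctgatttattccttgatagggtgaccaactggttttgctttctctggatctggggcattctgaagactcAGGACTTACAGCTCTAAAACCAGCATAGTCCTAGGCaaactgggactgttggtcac
TRIP12 intron 1, chr2:229889767-229889829: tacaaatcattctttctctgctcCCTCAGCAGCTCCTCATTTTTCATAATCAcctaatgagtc
TRIP12 intron 1, chr2:229901756-229901827: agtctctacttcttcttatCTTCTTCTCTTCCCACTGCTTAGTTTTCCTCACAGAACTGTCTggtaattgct
SMURF1 intron 1, chr7:99097515-99097642: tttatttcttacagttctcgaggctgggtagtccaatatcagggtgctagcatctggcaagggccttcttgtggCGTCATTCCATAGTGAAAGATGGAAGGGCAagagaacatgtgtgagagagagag

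The HUWE1 site in intron 23 had 38, 26 and 31 reads in replicates 1, 2 and 3, from 15, 11 and 15 distinct reads. The bases shared by all 3 replicates spanned 76 nt, the longest of the 6, and held ATCTT. Pyrimidines made up 57.6% of its bases, and it lay 2598 nt from the nearest exon. The reads were spread evenly over the replicates. The HERC1 site in intron 24 had 70, 15 and 43 reads, with 31 nt shared and 67.4% pyrimidine. It was the cluster with the most reads of HERC1 in replicate 1. A second region of the same intron, chr15:63710608-63710785, had 40, 33 and 44 reads, with 69.7% pyrimidine and no base common to the 3 clusters.

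The TRIP12 site in intron 4 had 35, 31 and 12 reads with 36 nt shared. Those in intron 1 had 10, 10 and 8 reads (29 nt shared) and 12, 6 and 11 reads (43 nt shared). The last of these had the highest pyrimidine share of the 15 regions, 73.6%, and held ATCTT across the edge of the shared bases. The SMURF1 site had 36, 5 and 6 reads with 30 nt shared, so most of its reads came from replicate 1. It was also the one region of the 15 below 50% pyrimidine, at 43.0%. Over the 15 regions the median was 59.3% pyrimidine, 36.3% T and 147 nt, and 5 of them held ATCTT. Of the 98 regions found in 2 replicates 19 held it, at a median length of 70 nt. Single clusters held it in 11.4% of the members' clusters and 9.34% of all gene-named clusters. Their median lengths were 39 and 38.7 nt (means over replicates). These sets differ in length, whose part was not tested, so nothing is read from the counts.

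The remaining regions found in all 3 replicates had little or no common base. In HUWE1 intron 3, chrX:53677108-53677199 had 12, 16 and 13 reads. HERC1 had 4 more regions besides those in intron 24, of which 2 lay in intron 1 (chr15:63781927-63782073 and chr15:63830154-63830314), 1 in intron 39 (chr15:63670561-63670722) and 1 in intron 63 (chr15:63637968-63638124). SMURF1 had a further pair in intron 1 near its start, chr7:99141784-99141932 and chr7:99142006-99142096. HERC2 had 1 in intron 68, chr15:28166584-28166660, with 7, 27 and 5 reads.

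Recurrence was then measured per gene, as the share of a replicate's clusters that overlap a cluster of another replicate by at least 1 nt, beside the share found once the clusters had been shifted by 1000 nt, since dense genes overlap by position alone. For the 8 members together the share was 26.5%, 27.9% and 26.2% (26.9% ± 0.94, SD, n = 3), against 11.4% ± 0.83 after moving. Each of 3 replicates lay above its moved value, by 15.5 points ± 0.80 (exact two-sided sign-flip p = 0.25, adjusted p = 0.25 over 4 tests). That p is the smallest that 3 replicates allow. Reads chose HUWE1, and recurrence was higher in clusters with more reads, so nothing is read from this test. An overlap between 2 replicates counts in the values of both, so the 3 values are not independent. The SD and the p-value do not allow for this, nor do the SDs of recurrence given below. Over all gene-named clusters 21.7% were found in another replicate, 11.1% ± 0.33 after moving, a difference of 10.7 ± 0.36 points. The members' difference was 8.48 points when both clusters had to overlap by 50% and, by moving distance, 6.94 points at 200 nt and 19.01 points at 5000 nt. With only 2 replicates to compare it ranged from 7.59 to 9.57, as fewer libraries can match.

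HUWE1 had the highest share after moving of the 8 genes, 18.0% ± 0.45, with 32.1% ± 0.94 found, so the excess was 14.0 points ± 1.09. HERC1 had 32.6% ± 1.68 found against 11.9% ± 2.02 moved, an excess of 20.7 ± 2.37. TRIP12 had an excess of 19.3 ± 2.65, SMURF1 19.6 ± 7.48 and HERC2 17.8 ± 3.06. The raw share was thus about equal in HUWE1 and HERC1, and the excess over moved clusters was larger in HERC1; that difference between genes was not tested. ITCH had an excess of 6.79 ± 7.48 points, within its spread, and NEDD4L one of 3.19 ± 3.13, about as large as its spread. In NEDD4 none of the 16 clusters met a cluster of another replicate, and a count of 0 of 16 allows a share of up to 18.8%, for counting error only.

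**Figure D3:**
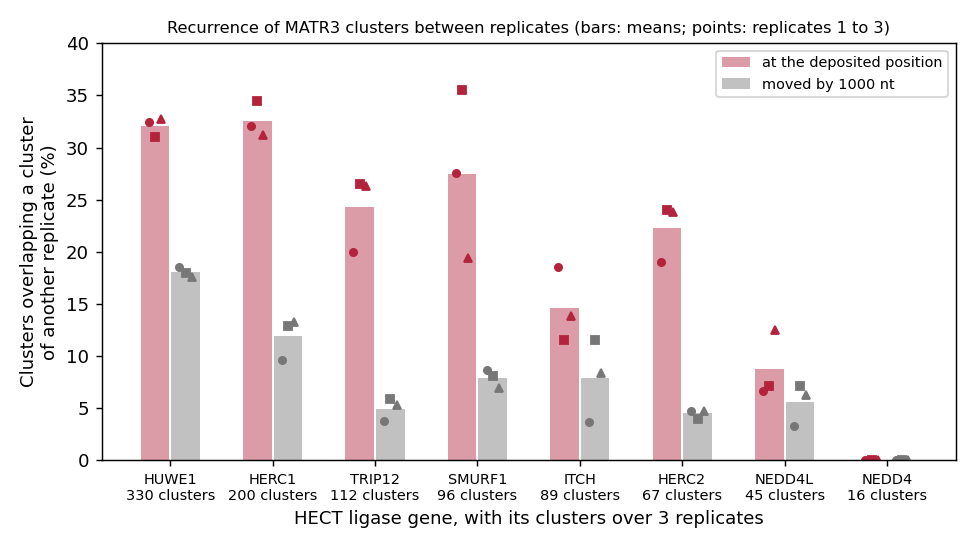
Percent of clusters of each gene that overlap a cluster of another replicate (found) and percent after moving the clusters by 1000 nt (moved). Points are the 3 replicates and bars their mean. The mean found lies above the mean moved in every gene but NEDD4, HUWE1 has the highest moved share (18.0%), and NEDD4 is at 0.

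Recurrence was higher in clusters with more reads, in the members as in all genes. Of member clusters with 4 to 9 reads 17.8% ± 2.48 were found in another replicate, of those with 10 to 19 reads 33.3% ± 4.44, and of those with 20 or more 46.9% ± 13.5. Over all gene-named clusters the values were 14.3%, 25.9% and 44.8%. Cluster length moved with the reads, with means of 37.1, 48.7 and 101.5 nt in the members and 37.6, 49.6 and 93.9 nt in all genes, and its part in the recurrence was not tested. HUWE1 had a median of 11.5 ± 1.32 reads per cluster and the other 7 genes 8.67, equal to that of all gene-named clusters.

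Nearly all clusters of the members were intronic. In the authors' annotation 921 of the 955 were of class intron, that is 94.8%, 98.3% and 96.5% in the 3 replicates (96.5% ± 1.75). All other gene-named clusters had 83.4% ± 0.43, 13.1 points ± 2.08 lower, with the same sign in each of the 3 replicates (p = 0.25 by the same exact test). Length moved with this difference, because all 8 members are longer than 100 kb. Clusters in the other protein-coding genes of at least 100 kb were intronic in 94.80%, 94.62% and 94.44% (94.6% ± 0.18). The members had 94.77%, 98.28% and 96.47%, so beside long genes replicate 1 lay slightly below and replicates 2 and 3 above. All 67 clusters of HERC2, 45 of NEDD4L and 16 of NEDD4 were intronic. HERC1 had 198 of 200, TRIP12 109 of 112, SMURF1 93 of 96 and ITCH 84 of 89. ITCH held 3 clusters in its 3′ UTR.

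HUWE1 had most of the members' exonic clusters, with 12 of class coding and 9 across a boundary, out of 330. Its intron share was 93.7% ± 2.18 (SD, n = 3). In the other protein-coding genes of at least 100 kb it was 94.6% ± 0.18, within the spread of HUWE1. Exon 68 was hit in all 3 replicates but at places that do not overlap, with 14 and 12 reads in replicate 1, 21 in replicate 2 and 28 in replicate 3. At the edge of exon 71 a cluster of replicate 2 with 10 reads (chrX:53545139-53545192) overlapped one of replicate 3 with 8 reads. In HERC1 exon 41 a cluster of 47 reads in replicate 1 (chr15:63666364-63666505) overlapped one of 7 reads in replicate 2.

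Within HUWE1 the clusters were spread over many introns. Of the 83 introns of the canonical transcript 42 had a cluster and 15 had one in each replicate. Intron 3, the longest at 25.9 kb, held 37, 33 and 35 clusters, 31.8% of the gene's clusters on 18.5% of its intron length. It held 34.5%, 33.2% and 23.4% of the reads (30.4% ± 6.10). Intron 19 (7.1 kb) followed with 9, 10 and 10 clusters, and intron 23 (5.6 kb) with 8, 5 and 10. Intron 70, only 1.3 kb long, had 4 clusters in each replicate, 3.14 per kb. The cluster numbers of introns 3, 19 and 70 were thus alike between replicates even where the bases covered were not. Other introns varied more, such as intron 7 with 3, 9 and 7 clusters and intron 8 with 1, 5 and 3. The 41 introns without a cluster had a median length of 587 nt, and the 42 with one 1274.5 nt.

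**Figure D4:**
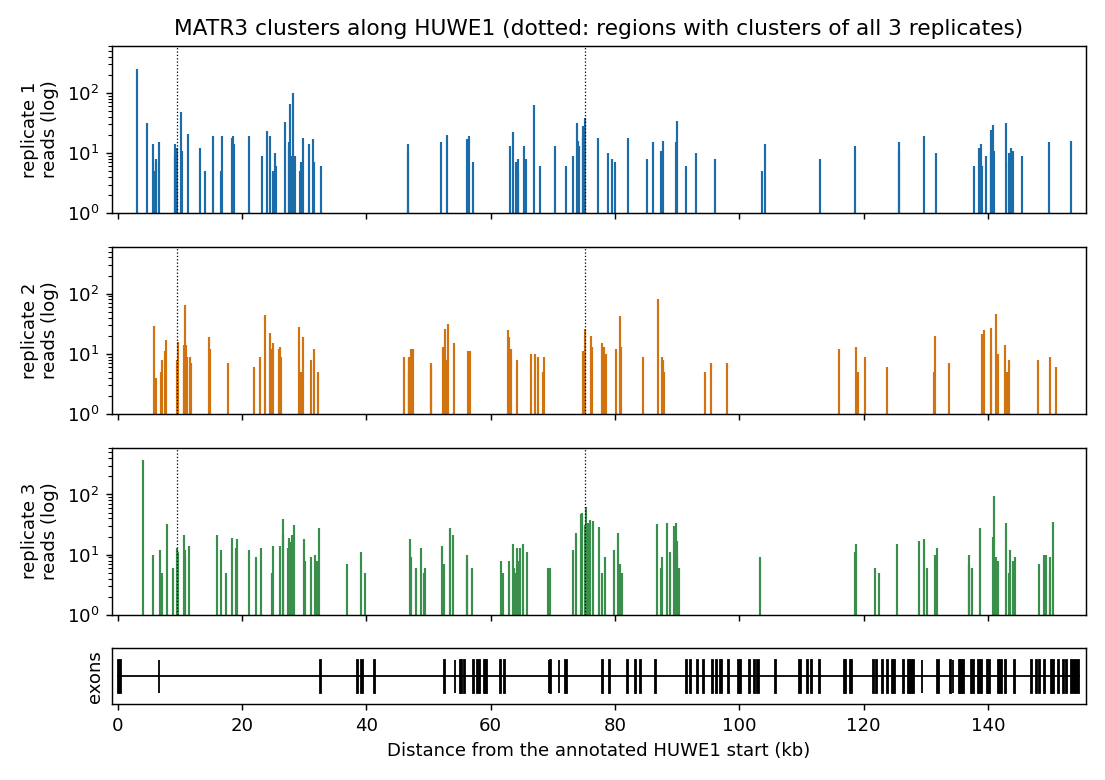
Clusters of the 3 replicates along HUWE1, plotted by distance in kb from the transcription start, with exons of the canonical transcript. Height is reads per cluster on a log axis, and dotted lines mark the regions found in all 3 replicates. Of 5 equal segments, the one at the start holds 106 of 330 clusters, the middle one 93, and the next 19.

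Divided into 5 equal segments from start to end, the gene held 106, 50, 93, 19 and 62 clusters summed over the replicates. The segment at the start had 41, 32 and 33 in replicates 1, 2 and 3, and segment 4 had 6, 8 and 5, so that every replicate had few there. Clusters also lay away from exons more than the intron bases did. In HUWE1 30.8% of intron clusters lay within 500 nt of an exon, where 41.5% of intron bases do, and in HERC1 18.7% against 30.8%. The same direction held in the other 6 genes, such as 4.44% against 8.32% in NEDD4L and 19.4% against 33.0% in HERC2. The gap was smallest in TRIP12, with 20% against 22.0%. These shares pool the clusters of the 3 replicates, only 45 in NEDD4L and 16 in NEDD4, and are given without a spread. The part of intron length in this pattern was not tested.

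The reads of HUWE1 depended in part on a few tall clusters that single replicates held. In replicate 1 a cluster of 248 reads (91 distinct) in intron 2, chrX:53683522-53683871, carried 13.0% of the gene's reads, and it overlaps a RefSeq promoter window of the gene. In replicate 3 a cluster of 378 reads (151 distinct) in the same intron, chrX:53682566-53682898, carried 16.6%. The 2 clusters do not overlap, and no other replicate had a cluster at either place. Intron 2 therefore held 313 and 388 reads in replicates 1 and 3 but 33 in replicate 2. In replicate 2 the tallest cluster had 81 reads, in intron 29 (chrX:53599802-53600016), and replicate 3 also had a cluster there, with 32 reads. Without the tallest cluster of each gene in each replicate HUWE1 had 1174 ± 211 normalised reads and was still first of the 8. Of the regions of HUWE1 in 2 replicates, those with most reads, chosen after their values were seen, lay in intron 70 (chrX:53545708-53545973, 40 and 114 reads in replicates 1 and 3) and intron 3 (chrX:53658418-53658692, 100 and 21 reads in the same replicates).

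The other members differed in how far their clusters were spread over introns. SMURF1 held 77 of its 96 clusters (80.2%) in intron 1, which is 81.9 kb long, and 6 of its 17 introns had any. TRIP12 held 14, 14 and 13 clusters in intron 1 (41.8 kb), and HERC1 31, 15 and 27 in intron 1 (58.2 kb). NEDD4 had 11 of its 16 clusters in intron 1 (27.0 kb), and only 2 of its 28 introns had a cluster. ITCH had a cluster in 13 of 24 introns and HERC1 in 27 of 77. In ITCH the fullest was intron 20, 8.1 kb long, with 6, 5 and 5 clusters, where the tallest clusters of replicate 1 (50 reads, chr20:34485435-34485548) and replicate 2 (29 reads, chr20:34485398-34485476) overlapped. HERC2 was spread thinly, with a cluster in 24 of 92 introns and at most 7 in any. NEDD4L had 23 of its 45 clusters (51.1%) in the last of 5 equal segments of the gene, and 12 in intron 1, the longest at 121.1 kb.

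HUWE1 also hosts the microRNA genes MIRLET7F2 and MIR98 in intron 60. The RefSeq table gives both mature products, which share the let-7 seed (bases 2 to 8, in capitals).
hsa-let-7f-5p: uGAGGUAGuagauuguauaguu
hsa-miR-98-5p: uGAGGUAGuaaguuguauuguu
A cluster named for MIRLET7F2 and not for HUWE1 lay at chrX:53557238-53557267 (hg38, minus strand), with the 22 bases of the mature microRNA in capitals.
MIRLET7F2 cluster: TGAGGTAGTAGATTGTATAGTTttagggtc

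That cluster had 27 reads in replicate 1 and 15 in replicate 3, from 13 and 6 distinct reads, and replicate 2 had none. T-to-C reads made up 85.2% in replicate 1 and every read in replicate 3. The 30 nt occur in 1 of the 11 let-7 hairpins of the table and the mature sequence alone in 2. How many of the reads reach the 8 bases beyond the mature sequence is not known here, so reads of the mature sequence alone could belong to either hairpin. No cluster was named for MIR98. Intron 60 had 2, 2 and 3 further clusters named for HUWE1. The microRNA cluster is not counted in the values of HUWE1.

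The share of T-to-C reads was lower in HUWE1 than in the other members in every replicate. It was 81.9%, 82.7% and 81.4% for HUWE1 and 90.1%, 86.9% and 89.7% for the other 7 genes together. The mean difference was -6.93 points ± 2.37, given as a description because reads chose HUWE1 and reads per cluster moved with the share. In clusters of 4 to 9 reads HUWE1 had 92.9% ± 1.74 and the others 95.5% ± 1.32, in those of 10 to 19 reads 83.8% ± 2.68 and 88.1% ± 2.99, and in those of 20 or more 77.5% ± 1.42 and 81.1% ± 3.31. In the last class, examined after seeing the data, the difference was -3.61 ± 4.09, within its spread. All gene-named clusters had 95.7%, 86.6% and 77.0% in the 3 classes. Every deposited cluster has at least 4 reads with T-to-C, so by construction the share is high where reads are few.

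Per T covered, conversion was 10.1% ± 0.32 in the members and 10.96% ± 0.36 in all gene-named clusters. HUWE1 had 9.86%, NEDD4L 12.95% ± 0.36 and NEDD4 14.0% ± 2.89, with few clusters behind the last. The clusters of the members had 34.7% ± 0.74 T, against 31.3% ± 0.89 over all gene-named clusters, with the highest shares in ITCH (36.8%) and HERC1 (36.2%). Pyrimidines made up 58.4% and 57.2%, with 56.2% in HUWE1 and 60.7% in HERC2. Only NEDD4, with 16 clusters, had a lower mean pyrimidine share than HUWE1 among the 8 genes.

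ATCTT, the DNA form of AUCUU, was searched on the RNA strand of each cluster. It occurred in 12.3%, 9.31% and 12.6% of member clusters and in 9.77%, 9.02% and 9.21% of all other gene-named clusters. The pooled members were higher in each of the 3 replicates, by 2.09 points ± 1.62, but by only 0.292 in replicate 2 (p = 0.25 by the same exact test). Among intron clusters only, the difference was 1.65 ± 1.38 points. By gene, NEDD4L (4.31%), NEDD4 (4.76%) and SMURF1 (8.45%) had means below the 9.34% of the other clusters. HUWE1 (10.8%), ITCH (11.5%), HERC1 (13.0%), TRIP12 (13.2%) and HERC2 (16.2%) had means above it.

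Some values of the members are less certain because of similar or overlapping sequence. HERC2 has near-identical partial copies, and clusters named for HERC2P10 numbered 13, 5 and 4 in the replicates, for HERC2P9 1 and 2 in replicates 1 and 2, and for HERC2P2 2 in replicate 3. How reads were divided between HERC2 and its copies is not given in the sources used here. No cluster lay on the opposite strand within any of the 8 genes.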

How the data were processed

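PAR-CLIP with an antibody against MATR3 was deposited for 3 biological replicates of HEK293 as tables of read clusters, called per replicate. Per the file headers, the values for reads, distinct reads and conversion events are raw whole counts. The deposited T-to-C value is a fraction (0 to 1), and times the reads it was whole within 0.01 in 950 of the 955 member clusters. The build is hg38, per the submitters' processing notes, and all 955 sequences equalled hg38. The aligner, cluster caller and annotation release are not given in the sources used here.

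Members were matched by gene name. Reads were divided by the reads in gene-named clusters of the replicate, per 1000000. Gene spans and introns came from GENCODE 44 (canonical transcripts), to which 84.6% of the 13557 names matched exactly, and promoter windows and miRNA sequences from RefSeq. The pooled members or HUWE1 were compared with other or moved clusters by exact sign-flip permutation tests (two-sided, 3 replicates). Benjamini-Hochberg adjustment was over 4 tests. Nothing is read from those of T-to-C reads in HUWE1 and of member recurrence, since reads chose HUWE1. The scripts were tested on simulated data. Python packages were pandas 2.3.3, numpy 2.4.6, scipy 1.17.1 and pysam 0.24.0.

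Named were the 8 members, lists of 28 HECT genes and 8 partners, the genes nearest to HUWE1 (3 by the rule), and the member regions found in all 3 replicates. Some items the rule names are not reported here. The members and lists were chosen with earlier results of these data known. The alternatives were stricter cluster sets, other overlaps and moving distances, other units, clusters by position, and leaving out each replicate. Reads carry no molecular identifiers, so they can include copies of one molecule. Library depth outside clusters is not known here.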

Additional observations from a re-analysis of the deposited data

Results flagged for a closer look

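Reads on the strand of a member that carried another name or none were not used in its values. Within HUWE1 they averaged 14.0 reads over the 3 replicates, all from the MIRLET7F2 cluster, with 27, 0 and 15 reads. Within ITCH they averaged 4.7 reads, from an unnamed cluster of 6 reads in replicate 1 and another of 8 in replicate 2. With no control library, both were set against a limit of 3 reads, the most that a count of 0 allows.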

How the results depend on the processing

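Of 65 alternatives for the 9 main results, 54 left it within its spread, within 1.5 times for the count of regions, or, for the differences, in the same direction, and 11 moved it. None of the 4 differences changed sign in these alternatives, and none could pass the threshold. The comparison of intron share with long genes was not among them. Among the levels of single genes 29 alternatives moved a value and 99 did not. Clusters per kb over the members, 0.207, became 0.123 with clusters of at least the median reads, 0.143 with at least 3 distinct reads and 0.226 per kb of intron. Both stricter sets hold fewer clusters by construction, and intron length is shorter. Conversion per T, 10.1%, became 9.56% and 9.46% in those stricter sets, and the cause was not tested. The rho of length and clusters, 0.139, became 0.0757 with at least 3 distinct reads. Regions in 2 or more replicates, 113, became 68 with at least the median reads, 84 with at least 3 distinct reads, 60 with 50% overlap and 42 to 51 without any 1 replicate, by construction. Leaving out HUWE1, and clusters of at least 20 reads, were alternatives chosen after seeing the data, and without HUWE1 the recurrence difference was 16.2 points. No paired analysis was possible because the samples form 1 group, so no replicate number is shared between groups; the differences were taken within each replicate. The number of replicates limits every test here to p = 0.25 at best (exact sign-flip).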
